A study of Homo sapiens with 4 samples.

Results

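Chromosome 21 was examined for contact with the nuclear lamina in LNCaP and VCaP, both established human prostate cancer lines. Its members are all 40 kb bins of the chromosome with a log2 enrichment in both lines, 884 bins of 71436 in the genome. The chromosome was chosen on measured values: it had the lowest share of lamina-associated bins in LNCaP, 4.86%, and the next lowest was chromosome 20 with 18.2%. Its low level in LNCaP and its difference from VCaP are therefore given as a description. The bins were divided at fixed positions of hg19 into a gene-poor part from 14500000 to 31000000 with 410 bins, a gene-rich part from 31000000 to the end with 427 bins, and 47 proximal bins ahead of them.

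LNCaP comes from a prostate adenocarcinoma and was grown in RPMI with serum. VCaP comes from a bone metastasis of prostate cancer and was grown in a DMEM and Ham mixture with serum. Neither line received a further treatment, and cells of both were fixed with formaldehyde. Each line gave 1 chromatin immunoprecipitation (ChIP) library made with a rabbit polyclonal lamin B1 antibody and 1 input library made without antibody, so the 4 libraries form 4 groups of 1. No difference has a replicate check and none was tested. Line and culture medium cannot be told apart.

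Lamin B1 is a building block of the nuclear lamina, the protein mesh inside the nuclear envelope, and DNA that is recovered with it marks chromatin at the nuclear edge. In many human cell types such chromatin forms long domains that are poor in genes and mostly silent, while gene-rich stretches tend to lie in the interior. Chromosome 21 is a short acrocentric chromosome whose long arm runs from a gene-poor proximal stretch to a gene-rich distal stretch. The gene-poor stretch is known to hold NCAM2, a neural adhesion molecule, and APP, the amyloid precursor protein. The gene-rich stretch is known to hold SOD1, a superoxide dismutase, RUNX1, a transcription factor of blood development, and the collagen VI genes COL6A1 and COL6A2. It also holds the androgen-regulated protease gene TMPRSS2 and the transcription factor gene ERG, which are fused in VCaP. In the RefSeq gene order of GRCh38.p14, 17 protein-coding genes ran from LIPI, a lipase gene, through APP, and 153 ran from SOD1 through PRMT2, an arginine methyltransferase gene. Of these, 0 and 16 were keratin-associated protein genes. The whole chromosome had 239 protein-coding genes in this order, 49 of them keratin-associated. Genes between APP and SOD1 are in neither count, so the counts do not cover the parts in full. Only that order was used: bins were not matched to genes, since the gene table is of another build than the bins.

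The deposited value of a bin is the log2 enrichment of ChIP over input, so 0 means equal recovery and negative values mean less DNA in the ChIP than in the input. A hidden Markov model state is deposited for each bin, and the state with the higher enrichment is called associated. The noise of a bin, taken over the genome from bins 3 apart, had an SD of 0.15 log2 units in LNCaP, 0.22 in VCaP and 0.20 for the difference between the lines. The tables used here give no read counts. The depth behind a bin is therefore unknown and intervals for counting error were not computed.

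The gene-rich part was depleted in LNCaP and enriched in VCaP. Its 427 bins had a median log2 enrichment of -0.41 in LNCaP, with an interquartile range of -0.56 to -0.29. In VCaP the median was 0.42, with an interquartile range of 0.17 to 0.63. The lowest and highest bins were -0.98 and 0.01 in LNCaP and -0.74 and 1.32 in VCaP. Only 2 of the 427 bins were above 0 in LNCaP, against 360 in VCaP.

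The gene-poor part was much closer in the lines. Its 410 bins had a median of -0.38 in LNCaP (interquartile range -0.61 to -0.04) and of -0.08 in VCaP (-0.33 to 0.15). Values ran from -1.56 to 0.38 in LNCaP and from -1.27 to 1.17 in VCaP. In LNCaP 89 of the 410 bins were above 0, and in VCaP 172 were.

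The contrast between the parts differed in size between the lines. In VCaP the gene-rich median lay 0.50 log2 units above the gene-poor median, and in LNCaP it lay 0.03 below. The spread followed another order. The SD over bins in LNCaP was 0.41 in the gene-poor part and 0.18 in the gene-rich part, while in VCaP it was 0.37 and 0.38. Of the gene-poor and gene-rich parts, the gene-poor part thus held most of the LNCaP relief, and the gene-rich part formed a low plateau. The 47 proximal bins varied more, with an SD of 1.03 in LNCaP.

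**Figure D1:**
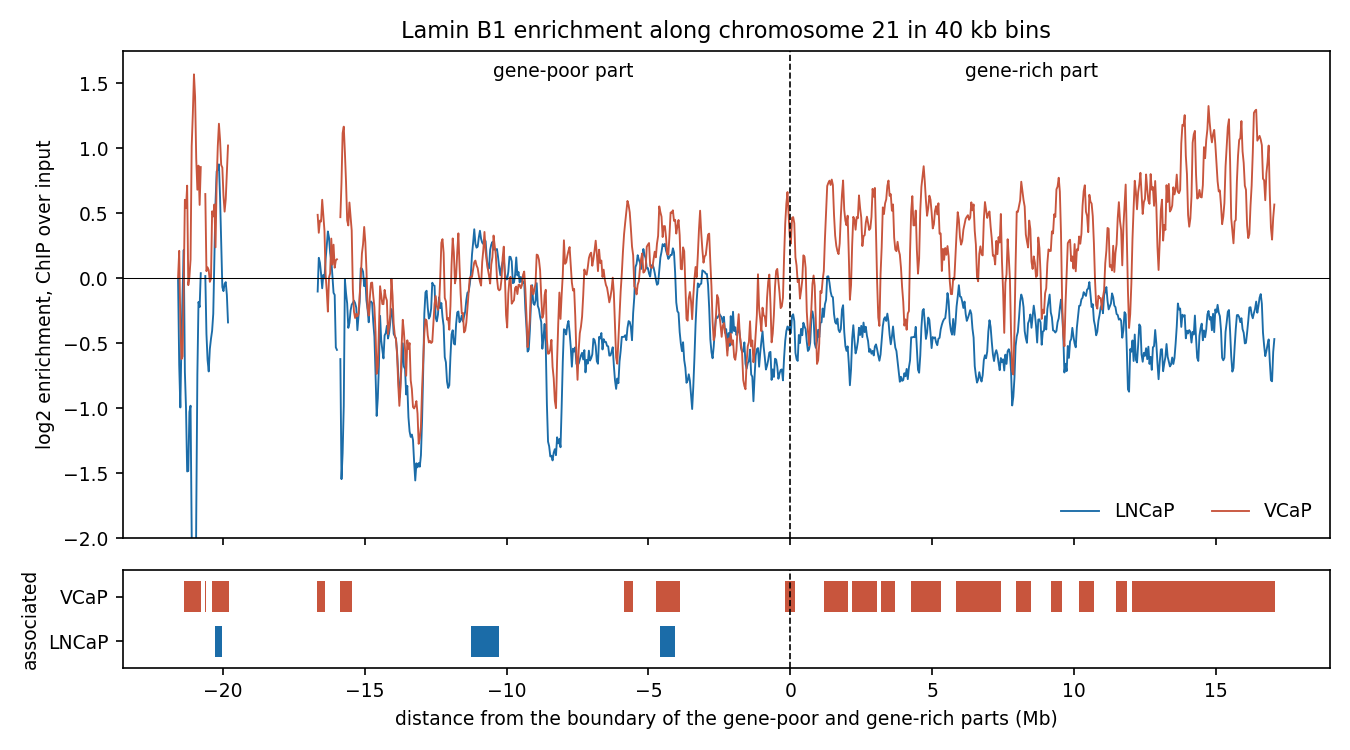
Log2 enrichment of lamin B1 ChIP over input in 40 kb bins along chromosome 21, against the distance in Mb from the boundary of the gene-poor and gene-rich parts (dashed line), with LNCaP in blue, VCaP in red, and the associated bins of each line as blocks in the lower panel. Right of the boundary LNCaP has no associated bin and VCaP has 298. The distance between the lines varies on both sides. In 1 Mb windows with at least 20 bins, VCaP minus LNCaP ran from -0.11 to 0.65 in the gene-poor part. In the gene-rich part it ran from 0.38 to 1.28. Breaks are gaps without a 40 kb bin, and 3 LNCaP bins below -2 lie outside the axis.

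**Figure D2:**
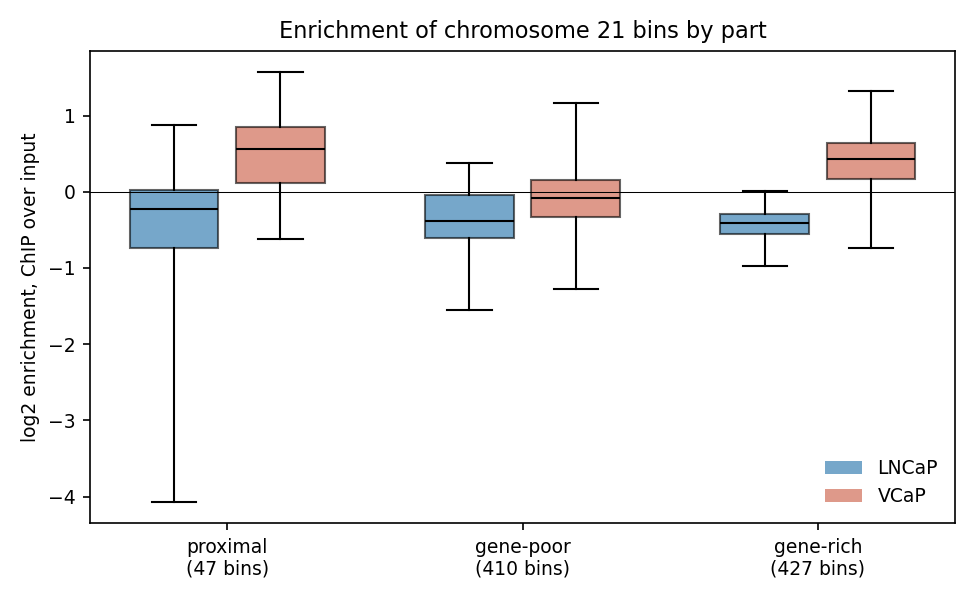
Log2 enrichment of chromosome 21 bins in the 3 parts, with the median as the line, the interquartile range as the box and the lowest and highest bin as the whiskers, LNCaP in blue and VCaP in red. The gene-rich boxes lie on opposite sides of 0, with medians of -0.41 and 0.42.

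Subtracting VCaP and LNCaP bin by bin gave the same picture. In the gene-rich part the median VCaP minus LNCaP difference was 0.84, and VCaP was above LNCaP in 423 of 427 bins. In the gene-poor part the median difference was 0.22, with VCaP above in 308 of 410 bins. Over the genome VCaP was above LNCaP in 58.1% of bins, with a median difference of 0.10. A difference above 0.5, which is over 2 times its noise, was found in 343 gene-rich bins (80.3%) and in 108 gene-poor bins (26.3%), against 21.3% of bins of the genome. The gene-poor count is thus near the level of the genome. A difference below -0.5, with LNCaP higher, was found in 1 bin of the chromosome against 9.33% of the genome.

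The deposited states were also counted by part. They belong to the same libraries as the values, so they are not separate evidence. Of the 427 gene-rich bins, 0 were associated in LNCaP and 298 (69.8%) were associated in VCaP. Of the 410 gene-poor bins, 37 (9.02%) were associated in LNCaP and 47 (11.5%) in VCaP. The shares over all bins of the genome were 37.9% in LNCaP and 44.4% in VCaP. Nothing is read from the LNCaP counts, on which the chromosome was chosen. In VCaP the gene-rich share was above that of the genome and the gene-poor share was below it.

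Each bin could be associated in both lines, in 1 line or in neither. These classes also use the LNCaP states, so they are given as counts from which nothing is read. All 298 associated gene-rich bins were associated in VCaP only, a class with 23.8% of the genome. In the gene-poor part 34 bins were associated in VCaP only, 24 in LNCaP only (17.2% of the genome) and 13 in both (20.6% of the genome). The remaining 339 gene-poor bins (82.7%) and 129 gene-rich bins (30.2%) were associated in neither line, a class with 38.4% of the genome.

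LNCaP had 3 associated domains (runs of adjacent associated bins) on the chromosome, 1.72 Mb in all. The longest, chr21:19760001-20720000, held 24 bins with a mean log2 enrichment of 0.24 and a range of 0.07 to 0.38. VCaP had a mean of 0.10 there and was associated in 0 of the 24 bins. The second, chr21:26400001-26920000, held 13 bins, whose mean was 0.20 in LNCaP against 0.39 for VCaP. It lay wholly inside a VCaP domain of 21 bins, chr21:26280001-27120000, and was the only stretch of the long arm associated in both lines. The remaining domain, chr21:10720001-10960000, lay among the proximal bins. Its 6 bins averaged 0.67 in LNCaP and 0.85 in VCaP, and all were also associated in VCaP.

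VCaP had 18 domains, of which 10 lay in the gene-rich part, 4 in the gene-poor part and 4 among the proximal bins. A domain across a boundary was counted where most of its bins lie. The 10 gene-rich domains had a median length of 700 kb and together 11.76 Mb. The longest domain of the chromosome, chr21:43040001-48080000, reached the last 40 kb bin. Its 126 bins averaged 0.74 in VCaP against -0.45 in LNCaP. The next 4 in length were chr21:36840001-38440000 with 40 bins, chr21:35240001-36320000 with 27 bins, chr21:33160001-34040000 with 22 bins and chr21:26280001-27120000 with 21 bins. The domain chr21:32200001-33040000 also had 21 bins. Mean VCaP enrichment in the first 3 of these next domains was 0.35, 0.50 and 0.45, and the LNCaP means there were -0.47, -0.45 and -0.48.

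The distal domain carried a large part of the VCaP signal but not all of it. Without its 126 bins, the gene-rich part still had a VCaP median of 0.27 and a LNCaP median of -0.40 over 301 bins. The VCaP associated share was then 57.1%, and the gene-rich median lay 0.35 above the gene-poor median in VCaP.

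Windows of 1 Mb showed where along the arm the lines parted. Only windows with at least 20 bins were ranked, which leaves out some windows beside gaps and ends but not all. The ranked window chr21:15000001-16000000 had 23 bins, 6 of them within 5 bins of a gap. Its difference of 0.65 was the largest of the gene-poor windows. Among the windows left out was the proximal window chr21:9000001-10000000, whose 15 bins averaged -1.21 in LNCaP and 0.29 in VCaP. Another was the mostly gene-poor window chr21:14000001-15000000, whose 17 bins averaged 0.05 in LNCaP and 0.22 in VCaP. In all 17 gene-rich windows so counted VCaP was above LNCaP, by 0.38 to 1.28. LNCaP window means ran from -0.61 to -0.25 and VCaP window means from -0.06 to 0.88, so the windows of the lines did not overlap in level. In the 16 gene-poor windows VCaP was above in 14, and the differences ran from -0.11 to 0.65. A window difference had a noise SD of 0.07.

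Among the ranked windows, the largest differences lay at the distal end. In chr21:45000001-46000000 LNCaP averaged -0.40 against 0.88 in VCaP, which is 1.28 apart. In chr21:47000001-48000000 the difference was 1.19, with means of -0.39 and 0.80. In chr21:44000001-45000000 it was also 1.19, with means of -0.49 and 0.69. In chr21:46000001-47000000 VCaP averaged 0.76, below only the windows on either side of it, and LNCaP -0.41. These 4 of the ranked windows are thus the most enriched in VCaP, while in LNCaP they were near the median of the gene-rich windows, -0.41.

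The gene-poor part held the windows where LNCaP was at or above VCaP. In chr21:20000001-21000000 LNCaP averaged 0.19, its highest among the ranked windows, against 0.08 in VCaP, so that VCaP minus LNCaP was -0.11. In chr21:21000001-22000000, the third highest of LNCaP among the ranked windows, the means were -0.09 and -0.14. The difference of -0.05 was within the noise. The unranked window chr21:14000001-15000000 had a higher LNCaP mean, 0.05. The second highest window of LNCaP, chr21:26000001-27000000, had 0.11 in LNCaP and 0.32 in VCaP.

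Among the ranked windows, both lines had their deepest in the gene-poor part, at chr21:17000001-18000000, where LNCaP averaged -0.99 against -0.75 for VCaP. The window chr21:22000001-23000000 was the second lowest in LNCaP, at -0.86, and the third lowest in VCaP, at -0.32. The window chr21:29000001-30000000 was second lowest in VCaP, at -0.49, with -0.58 in LNCaP. The third lowest window of LNCaP was gene-rich, chr21:38000001-39000000, with -0.61 against 0.06 in VCaP.

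Runs of bins below -1 in LNCaP marked these troughs more closely. The run chr21:17520001-18040000 held 13 bins between -1.56 and -1.07 in LNCaP, and VCaP was also low there, with a mean of -0.93 and a range of -1.27 to -0.50. The run chr21:22440001-22920000 held 12 bins between -1.40 and -1.22, a nearly flat floor. VCaP averaged -0.58 there and reached -0.11 in its highest bin. No bin of either run was adjacent to a gap. Of the 29 gene-poor bins below -1 in LNCaP, 5 were also below -1 in VCaP, and no gene-rich bin was below -1 in either line. The 29 include chr21:15160001-15240000, whose 2 bins lay within 5 bins of a gap and averaged 0.93 in VCaP.

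The agreement of the lines was described by the correlation of their values across bins, which share averaged entries with their neighbours and are not replicates. Pearson r was 0.54 over the 410 gene-poor bins (Spearman rho 0.53) and 0.34 over the 427 gene-rich bins (rho 0.28). Over all 884 bins r was 0.19 and rho 0.25, and over the 837 gene-poor and gene-rich bins together r was 0.32 and rho 0.26. The value over the genome was 0.28 (rho 0.30).

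The scale of the agreement differed between the parts. Across the 16 gene-poor windows of 1 Mb r was 0.69, and across the 17 gene-rich windows it was -0.02. After each window's mean was subtracted, r over bins was 0.34 in the gene-poor part and 0.56 in the gene-rich part. In the gene-rich part the lines thus shared fine relief within windows and not the level of the windows. Over the genome r was 0.17 across 2830 windows and 0.47 within them. Chromosome 20 had -0.01 across and 0.62 within windows. Chromosome 18 had 0.27 and 0.58, and chromosome 22 had 0.14 and 0.31. None of these differences was tested.

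**Figure D3:**
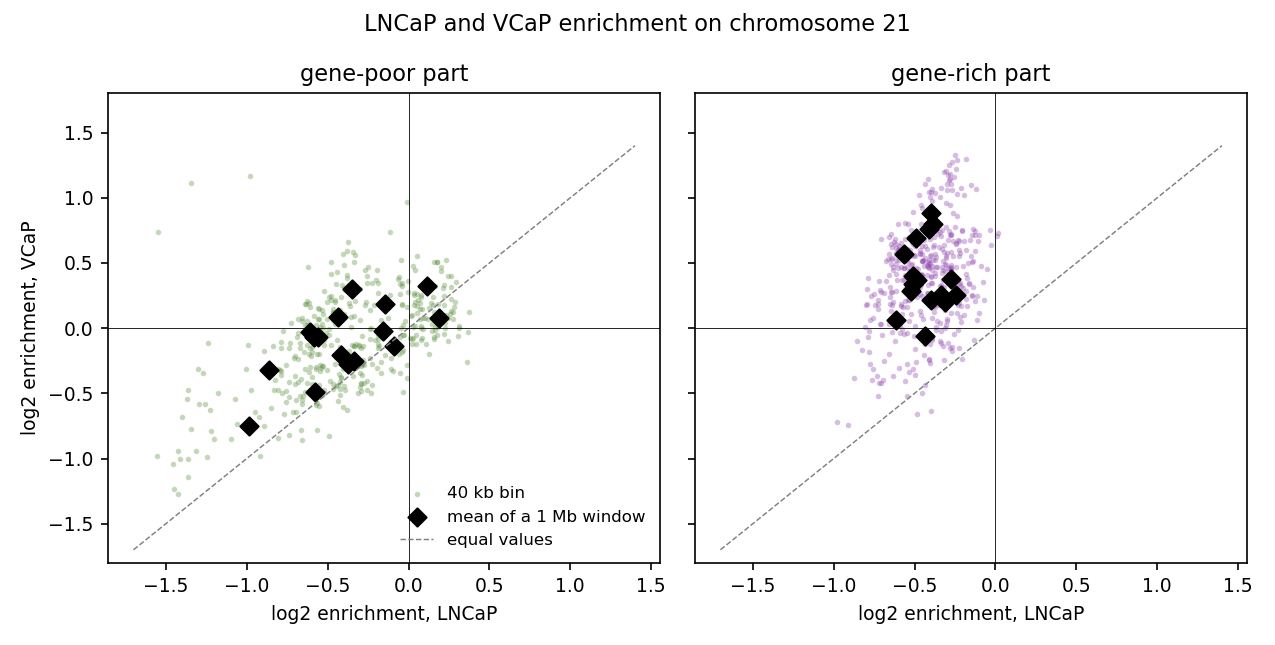
VCaP against LNCaP log2 enrichment on chromosome 21, with 40 kb bins as small points, means of 1 Mb windows as black diamonds and equal values as the dashed line, for the gene-poor part on the left and the gene-rich part on the right. The gene-poor windows follow a common slope (r = 0.69), while the gene-rich windows form a column at LNCaP means of -0.61 to -0.25 (r = -0.02).

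LNCaP values were also compared inside and beside the VCaP domains. Each domain was set against up to 5 adjacent bins outside it on each side, which neighbouring domains can share. In the 10 gene-rich domains LNCaP was higher inside than beside in all 10, by 0.05 to 0.26 with a median of 0.19, although LNCaP had 0 associated bins in them. VCaP, whose states define the domains, was higher inside by 0.40 to 0.94. In chr21:41160001-41720000, for example, the LNCaP mean was -0.16 inside and -0.40 beside. In chr21:36840001-38440000 it was -0.47 inside and -0.52 beside, the smallest of the 10 differences. Over the genome LNCaP was higher inside in 88.6% of 1243 VCaP domains, and in 82.8% of the 540 with no LNCaP-associated bin, so the gene-rich count is near the background. In the gene-poor part LNCaP was higher inside in 2 of 4 domains.

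**Figure D4:**
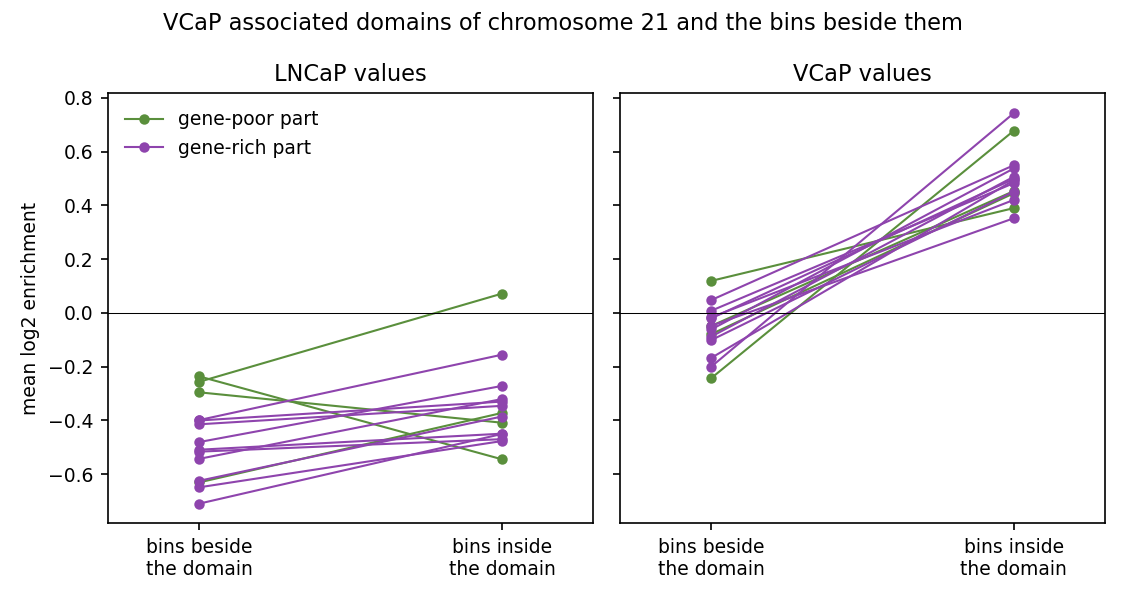
Mean log2 enrichment in the bins beside and inside each VCaP associated domain of the gene-poor part (green) and the gene-rich part (purple), with 1 line per domain, LNCaP values on the left and VCaP values on the right. All 10 gene-rich domains are higher inside in LNCaP too, yet stay below 0. Over the genome LNCaP was higher inside in 88.6% of VCaP domains, and in 82.8% of those with no LNCaP-associated bin.

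The change between the parts did not sit at the boundary itself. The 25 bins before it averaged -0.61 in LNCaP against -0.03 in VCaP, and the 25 bins after it averaged -0.44 against -0.06. A VCaP domain of 9 bins, chr21:30800001-31160000, spanned the boundary. The first wholly gene-rich VCaP domain began at 32200001, and the highest LNCaP bin of the gene-rich part, chr21:32320001-32360000 with 0.01, lay inside it.

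The 47 proximal bins lie on either side of the entry over the centromere and were uneven. Their median was -0.22 in LNCaP and 0.56 in VCaP, and their noise was 0.61 and 0.47, against 0.13 and 0.20 in the gene-poor part. The lowest LNCaP bin of the chromosome, chr21:9960001-10000000, had -4.07 in LNCaP and 1.57 in VCaP, which is also the highest VCaP bin. Without the 5 bins beside each gap, the LNCaP median of the proximal bins was -0.44, and the lines were 1.09 apart in place of 0.79. Pearson r over the proximal bins was -0.27 and Spearman rho 0.05. Apart from values, domain counts and window ranks over the whole chromosome, and the domains and window named as proximal, no result above rests on these bins.

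Chromosome 21 was set beside chromosomes 22, 20 and 18, which are short, and 22 is also acrocentric. In LNCaP its median of -0.40 was the lowest of 24 chromosomes, against -0.08, -0.05 and 0.14 on chromosomes 22, 20 and 18. In VCaP its median of 0.18 had rank 11 from the lowest, against 0.67, 0.44 and 0.18 there. The VCaP associated share was 43.1% on chromosome 21, against 90.3%, 72.8% and 42.8% in the same order. The VCaP share of chromosome 21 was close to the 44.4% of the genome, with its gene-rich part above and its gene-poor part below that value.

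**Figure D5:**
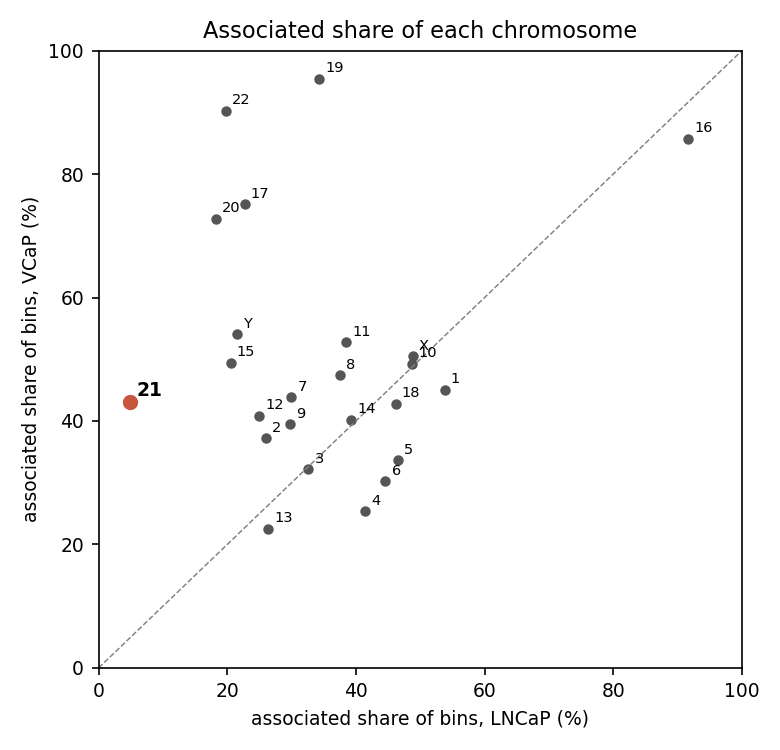
Share of associated bins of each of the 24 chromosomes in percent, LNCaP on the horizontal and VCaP on the vertical axis, with equal shares as the dashed line and chromosome 21 in red. Chromosome 21 lies farthest left, at 4.86% in LNCaP, with 43.1% in VCaP.

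The gene-rich part was also set beside stretches of the same number of bins elsewhere. The other chromosomes held 154 consecutive blocks of 427 bins. Blocks were laid from the start of each chromosome, so distal bins that did not fill a block were not compared. The gene-rich part itself reaches the distal end of chromosome 21. The medians of VCaP minus those of LNCaP ran from -0.36 to 0.99, with a median of 0.11, against 0.84 in the gene-rich part. It was at least as large in 2 blocks, chr9:123760001-140960000 with 0.85 and chr19:37320001-54400000 with 0.99. The chromosome 19 block was the only one with 0% of its bins associated in LNCaP, and its VCaP share was 92.7%. A difference of this size was thus not limited to chromosome 21. Since the chromosome was chosen on its low LNCaP share, the place of its gene-rich part among the blocks is only a description.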

How the data were processed

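Lamin B1 ChIP and input libraries of both lines were aligned to hg19, and STAR is among the tools used, per the submitters' processing notes. The authors' deposited tables give log2 enrichment over input for each 40 kb bin and a state, AD (associated) or iAD. The scaling of ChIP to input and the model's settings are not given in the sources used here.

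The deposited values behave as trailing means of 3 entries: undoing that mean brought the 3120 kb entry over the centromere from -0.31 to 0.01 in LNCaP and from 0.62 to 0.02 in VCaP. Signal is thus placed about 40 kb downstream. Only 40 kb entries with a value in both lines were kept. On chromosome 21 this left out 3 of 889 entries with a value in LNCaP for their width and 2 more for want of a VCaP partner, and 4 of 888 in VCaP for their width.

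Noise is the median absolute difference of bins 3 apart, times 1.4826, divided by the square root of 2. The text names every LNCaP domain, the 5 longest VCaP domains and the 3 highest and 3 lowest windows of 1 Mb per line and for the difference. Other stretches named, and the runs below -1, the flank and block comparisons and the split into values across and within windows, were chosen after their values were seen. The chromosome, its parts and these rules were chosen with earlier results of these data known. The undone mean was tested on simulated data of 71847 entries built as exact trailing means, where the largest median error on a chromosome was 0.0185. The domain search was given the planted states themselves and returned 1779 of 1779 domains. That checks only the joining of adjacent bins and not the finding of domains in noisy values. Calculations used numpy 2.4.6 and scipy 1.17.1 with pandas 2.3.3 under Python 3.11.15, and figures used matplotlib 3.10.9.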

Additional observations from a re-analysis of the deposited data

Results flagged for a closer look

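In 3 results the lines had opposite signs, with 1 library pair each, so the difference between them was not tested. The median log2 enrichment of chromosome 21 was -0.40 in LNCaP and 0.18 in VCaP. In the gene-rich part it was -0.41 in LNCaP and 0.42 in VCaP. The gene-rich minus gene-poor difference was -0.032 in LNCaP and 0.50 in VCaP. The LNCaP difference was smaller than the noise SD of a single bin, 0.15, so its sign is not read as a reversal.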

How the results depend on the processing

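For 32 results, 162 values were computed under alternatives. Of these, 141 stayed within the noise, interval or factor set for their kind, and 21 moved. The sign changed in 2, the VCaP median of the whole chromosome (0.18) with each line centred and r of the gene-rich part (0.34) with means of 1 Mb. For medians and their differences the limit was the noise SD of a single bin, which is wide for values over many bins. Without the longest VCaP domain, the VCaP gene-rich median of 0.42 became 0.27 and still counted as unchanged. So did the LNCaP proximal share of 12.8%, which became 27.7% with enrichment over 0. With the genome median of each line subtracted, the gene-rich medians were -0.47 in LNCaP and 0.23 in VCaP, and the VCaP median of the whole chromosome was -0.01. The gene-rich minus gene-poor difference ran from 0.35 to 0.53 in VCaP and from -0.07 to -0.02 in LNCaP over all alternatives. The gene-rich part had 0% associated bins in LNCaP under every alternative but enrichment over 0, which gave 0.468%.

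Calling bins over 0 associated gave 21.7% (LNCaP) and 42.0% (VCaP) in the gene-poor part, 84.3% in the VCaP gene-rich part, and 11.8% and 64.7% over the chromosome, with 16 LNCaP domains (median 140 kb) and 43 VCaP domains (median 320 kb). With the genome median as threshold, the gene-poor shares were 16.8% and 20.5%, and the LNCaP share of the chromosome was 8.94%. By construction these thresholds call each bin from its own deposited value only. That value behaves as a trailing mean, so it still shares averaged entries with neighbouring bins. Without the longest VCaP domain, left out after its values were seen, the VCaP share was 57.1% in the gene-rich part and 33.6% over the chromosome. With means of 1 Mb, r was 0.69 in the gene-poor and -0.017 in the gene-rich part. Without the proximal bins, also an alternative chosen after seeing the data, r over the chromosome was 0.32. For the proximal bins, leaving out bins beside gaps gave a LNCaP median of -0.44 and a difference of 1.09, and means in place of medians gave -0.52 and 1.02. The cause of these changes was not tested. No paired analysis was possible because no group holds more than 1 library. Unknown depth leaves the noise between bins as the limit on single bins.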
